A study of Mus musculus with 8 samples.

Results

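Germline and meiosis genes were examined in 8 mouse iPSC clones. They are 34 genes, chosen by name for their roles in gonocytes, meiosis and oocytes, among the 21428 gene symbols of the table. Where a gene had several RefSeq records, the record with the highest mean count stood for it. The study asked whether PIWI proteins are needed to reprogram fibroblasts, and sequenced RNA from 4 TKO clones (35, 37, 47 and 48) and 4 Ctrl clones (33, 34, 41 and 43). In TKO cells most of the *Miwi* open reading frame is replaced by GFP, exons of *Mili* are deleted and in-frame stop codons are inserted into *Miwi2*. Ctrl cells came from littermates, given as triple heterozygous in the study's methods but as wild type or heterozygous in its figure legends. All clones carry an Oct4-GFP reporter on a mixed C57BL/6-s129 background, were made from embryonic fibroblasts with retroviral OCT4, SOX2, KLF4 and c-MYC, and were picked onto growth-arrested fibroblast feeders. By their numbers, 2 clones of each genotype belong to the forties and 2 to the thirties, called clone series here. The labels do not say what these numbers stand for or which embryo a clone came from, so p-values measure the spread between clones.

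Germ cells are set aside early in the embryo and later replace mitosis with meiosis. Homologous chromosomes then break, recombine and are held together by a protein axis, meiotic cohesins and the synaptonemal complex. In somatic and pluripotent cells many genes of this programme are kept low by DNA methylation of CpG-rich promoters and by a Polycomb complex with the DNA-binding subunits E2F6, MGA and MAX. Part of the programme is known to be transcribed at a low level in mouse pluripotent stem cells.

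Total reads ran from 24593995 to 52457455 in TKO libraries and from 8983203 to 24688324 in Ctrl libraries. Counts were divided by size factors, and a value below is such a normalized read count unless said otherwise. *Miwi* had 2.41 to 4.53 normalized counts in TKO clones, against 8.13 to 28.8 in Ctrl clones. *Mili* had 3845 to 10084 in TKO clones and 758 to 1028 in Ctrl clones, but its record counts the whole transcript and does not test the deletion. *Miwi2* had 936 to 2862 in TKO clones and 487 to 769 in Ctrl clones. The paper describes the raised *Mili* and *Miwi2* transcripts of TKO cells as truncated and without function. TKO 35 and TKO 37 were the closest pair of libraries, with 99.8% of records within 2-fold of each other, and differed by more than sampling noise (mean chi-square of 11 per record). Y-linked counts summed to 312.5 and 483.9 in TKO 47 and 48 and to 372.8 and 543.1 in Ctrl 41 and 43, against 10.8 to 17.3 in the clones of the thirties. *Xist* was 777 and 892 in TKO 47 and 48 and 625 and 729.5 in Ctrl 41 and 43, against 375 and 393 in TKO 35 and 37 and 726 and 518 in Ctrl 33 and 34. Clone series and Y-linked expression therefore cannot be told apart. Of 14 markers that define germ cells, 6 of them among the 34 genes, the summed counts were 802.4 to 1285.6 in TKO clones and 729.5 to 2828 in Ctrl clones. *Dazl*, *Stra8* and *Zp3* made up most of these sums. The others had 60.2 or less in every clone, with *Prm1*, *Prm2* and *Acrv1*, genes of maturing sperm cells, at 5.98 or less and *Ddx4*, a germ cell RNA helicase, at 11.5 to 36.7.

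Of the 34 genes, 31 reached 5 reads in 4 or more of the 8 libraries and were tested. *Nanos2*, a regulator of male germ cells, had 0 to 3.06 normalized counts and *Figla*, an oocyte transcription factor, had 0 to 4.27. *Spo11*, which makes the meiotic DNA breaks, was listed at 0 in every library. Its symbol has 3 records, and in this table the highest mean count of a symbol had a median of 7.5 reads where there were 3 or more mRNA records (946 symbols), against 157.5 reads where there was 1 (16938 symbols). *Uhrf1*, a gene of dividing cells, was also listed at 0. Counts of *Spo11*, *Syce2*, *Kit*, *Tex11* and *Brdt*, which have several records, are therefore uncertain. The record that stood for *Syce2* is a non-coding one, so its counts may not give the level of the protein-coding transcript.

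Levels between genes were compared per kilobase of transcript. *Tex19.1*, a factor of germ cells and placenta that restrains retrotransposons, was the highest with a mean of 2103 normalized counts per kilobase over the 8 clones. *Rpl10l*, an autosomal copy of the X-linked ribosomal protein gene *Rpl10*, followed with 544 per kilobase. The *Rpl10* record held 50315 to 74016 normalized counts, and reads could be shared between these copies. Next were *Hormad1*, a protein of the meiotic chromosome axis, with 486 per kilobase and *Stag3*, a meiotic cohesin subunit, with 350.1. The mean per kilobase was 304 for *Sohlh2*, 238 for *Dmc1*, 234 for *Syce1*, 217 for *Sycp3*, 211 for *Dazl*, 208 for *Rec8* and 199.5 for *Stra8*, and the range of each over the clones overlapped that of its neighbour in this order. At the low end, *Syce2*, *Slc25a31* and *Tex11* had means of 23.6, 22.2 and 21.2 per kilobase and *Brdt*, *Gdf9*, *Sycp2*, *Kit*, *Mei1* and *Nobox* had 7.38 or less.

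**Figure D1:**
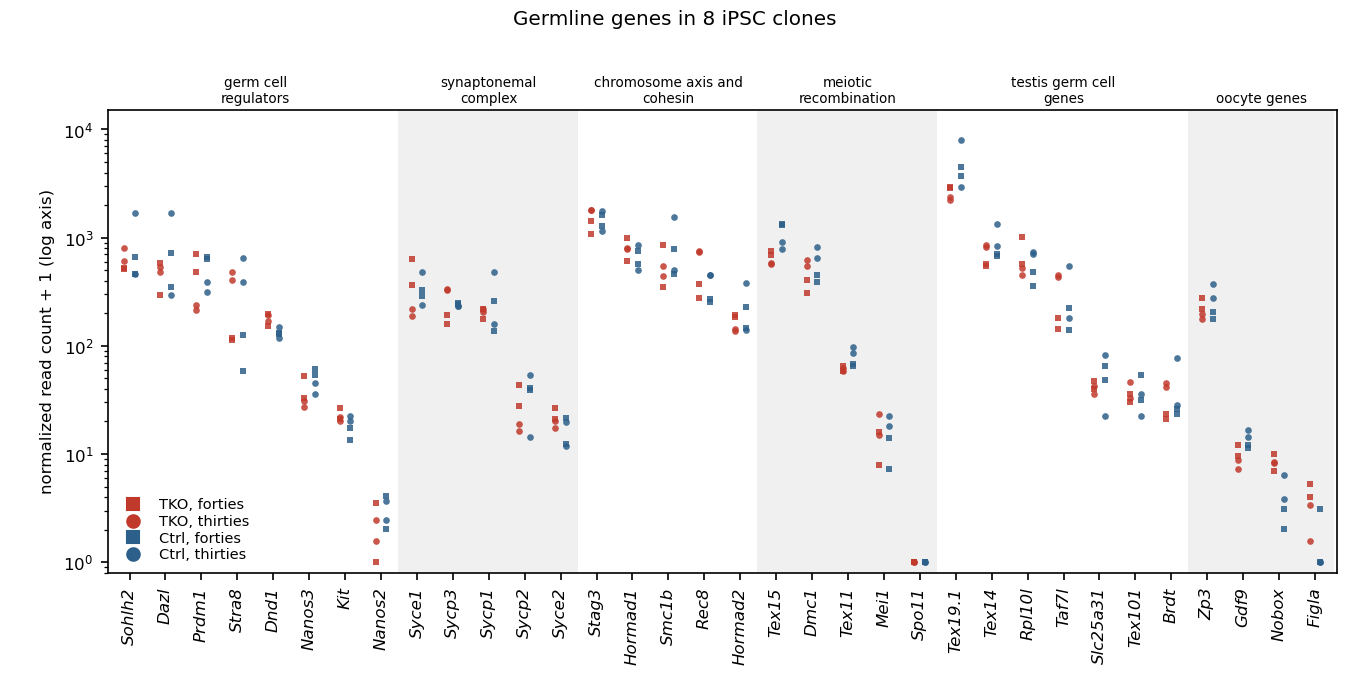
Normalized read count plus 1 (log axis) of the 34 germline genes, grouped by role and ordered by mean within a role. Each point is 1 iPSC clone, TKO in red to the left and Ctrl in blue to the right, with squares for clones of the forties and circles for clones of the thirties. *Tex19.1* lies between 2250.4 and 7990.1 in all clones and *Spo11* at 0.

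Promoters were read from RefSeq (GRCm38.p6) as the 250 bases before the annotated start, and 29 of the 34 genes had one. They held a median of 14 CpG dinucleotides, against 6 in the promoters of 27025 genes. The E-box CACGTG, the letters bound by MGA with MAX, occurred in 8 of the 29 (27.6%) and in 6% of all promoters. The letters TCCCGC, read on both strands (GCGGGA on the other) and known as an E2F6 motif, occurred in 10 (34.5%) and in 16.9% of all. Motifs of this kind are more frequent in CpG-rich sequence. Among promoters with at least 10 CpG, the E-box occurred in 31.8% of 22 germline promoters and 9.5% of 10328 promoters, and TCCCGC in 40.9% and 37.2%. The motifs can share a base at their ends. Promoters are shown for the gene with the highest level and for 5 genes that were lower in the clones of the forties, with either motif in capitals. They lie at chr11:121145893-121146142 (plus strand), chr6:34920698-34920947 (plus), chr14:55617916-55618165 (plus), chr15:79605110-79605359 (minus), chr11:87404815-87405064 (plus) and chrX:134476491-134476740 (minus), and are written 5′ to 3′ on the strand of the gene.
Tex19.1: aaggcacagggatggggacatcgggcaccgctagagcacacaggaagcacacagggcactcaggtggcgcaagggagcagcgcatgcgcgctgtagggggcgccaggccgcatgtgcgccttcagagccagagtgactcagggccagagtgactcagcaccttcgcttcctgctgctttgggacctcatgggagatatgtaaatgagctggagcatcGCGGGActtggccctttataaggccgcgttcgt
Stra8: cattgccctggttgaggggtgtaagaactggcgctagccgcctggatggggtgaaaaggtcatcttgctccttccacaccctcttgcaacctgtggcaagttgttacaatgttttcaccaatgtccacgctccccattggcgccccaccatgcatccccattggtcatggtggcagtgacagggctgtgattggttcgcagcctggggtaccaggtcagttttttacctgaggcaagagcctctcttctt
Rec8: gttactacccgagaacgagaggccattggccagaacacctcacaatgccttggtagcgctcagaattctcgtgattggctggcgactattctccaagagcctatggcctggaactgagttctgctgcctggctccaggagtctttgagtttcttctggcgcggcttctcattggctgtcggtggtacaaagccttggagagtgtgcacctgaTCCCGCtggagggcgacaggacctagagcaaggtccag
Dmc1: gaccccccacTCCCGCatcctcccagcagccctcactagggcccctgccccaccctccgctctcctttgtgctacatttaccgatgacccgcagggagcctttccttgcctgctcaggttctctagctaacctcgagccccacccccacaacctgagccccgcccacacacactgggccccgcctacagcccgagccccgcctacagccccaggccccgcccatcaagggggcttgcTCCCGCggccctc
Tex14: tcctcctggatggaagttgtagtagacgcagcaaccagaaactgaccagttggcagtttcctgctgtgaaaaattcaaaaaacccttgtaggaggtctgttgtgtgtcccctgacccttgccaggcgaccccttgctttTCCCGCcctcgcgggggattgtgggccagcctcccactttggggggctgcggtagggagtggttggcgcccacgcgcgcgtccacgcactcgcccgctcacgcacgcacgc
Taf7l: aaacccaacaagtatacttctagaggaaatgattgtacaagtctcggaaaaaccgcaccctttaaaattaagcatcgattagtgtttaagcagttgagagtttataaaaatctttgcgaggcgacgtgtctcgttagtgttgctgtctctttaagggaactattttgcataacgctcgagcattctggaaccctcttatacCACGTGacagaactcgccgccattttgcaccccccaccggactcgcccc
*Dmc1* held TCCCGC at 2 places and *Tex19.1*, *Rec8* and *Tex14* at 1, *Taf7l* held the E-box once, and these letters were not in the window of *Stra8*. The promoter of *Brdt*, also called as lower in the forties below, is not shown and held the E-box at 1 place. Neither methylation nor binding was measured here.

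Loss of the PIWI proteins was compared first over all 8 clones. None of the 31 germline genes was called by edgeR's quasi-likelihood test (Benjamini-Hochberg adjusted p under 0.05), where 0.240% of the 16235 tested records were called. At an unadjusted p under 0.05 there were 4 genes, *Dnd1* and *Nobox* higher and *Tex15* and *Tex19.1* lower in TKO iPSCs, against 14.8% of all records. DESeq2 called *Tex15* alone and limma-voom called 0. The median log2 change of the 31 genes was -0.24, with 12 above 0 and 19 below, and that of all records was -0.01. In bulk RNA, fewer cells with a transcript and less of it per cell cannot be told apart. Without Ctrl 34 the median was 0.07, with 17 above and 14 below. In 4 genes the genotypes did not overlap, higher for *Dnd1* and *Nobox* and lower for *Tex15* and *Tex11*, and 8.33% of all records did not overlap.

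*Tex15* was lower in all TKO clones and had the smallest unadjusted p of the 31 genes (0.00286). It encodes a protein needed for repair of meiotic breaks and for piRNA-directed silencing of transposons in the fetal testis, and lies in mm9 on chromosome 8 from 34627210 to 34696054. Its counts were 565, 584, 684 and 749 in TKO 35, 37, 47 and 48, against 783, 907, 1314 and 1334 in Ctrl 33, 34, 41 and 43. Every TKO clone was below every Ctrl clone, and within each genotype the forties were above the thirties. The log2 change of *Tex15* was -0.75 (SE 0.19, edgeR adjusted p = 0.177). A model that also held the clone series gave -0.72 (SE 0.11) with an edgeR adjusted p of 0.00994, and *Tex15* was the only one of the 31 genes called, where 5.70% of all records were called. In that model *Tex15* was called in all 14 alternatives, with adjusted p from 3.01e-08 to 0.0475. Within the thirties the log2 change was -0.56 (edgeR adjusted p = 0.0235) and within the forties -0.88 (edgeR adjusted p = 0.0211).

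The other genes of meiotic recombination did not pass the test between genotypes. *Tex11*, an X-linked gene for a protein of synapsis and crossover formation, had 57.2, 61.3, 64.1 and 57.3 counts in TKO 35, 37, 47 and 48, against 84, 96.5, 67.5 and 64.2 in Ctrl 33, 34, 41 and 43. TKO 47 and Ctrl 43 lay almost level at the border of the groups. The fitted log2 change was -0.37 (SE 0.21, edgeR adjusted p = 0.428). *Mei1*, needed for the formation of breaks, had 6.23 to 22.2 counts over the clones.

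Among the testis germ cell genes, *Tex19.1* was lower in most TKO clones and did not pass the test. Its counts were 2250.4, 2386, 2924 and 2845 in TKO 35, 37, 47 and 48, against 2912, 7990.1, 4499.9 and 3696 in Ctrl 33, 34, 41 and 43. TKO 47 exceeded Ctrl 33, and Ctrl 34 stood far above the other clones. The log2 change was -0.88 (SE 0.27, edgeR adjusted p = 0.227), and -0.51 without Ctrl 34. With the clone series in the model it had an edgeR adjusted p of 0.0832, and without Ctrl 34 or Ctrl 33, by DESeq2 or without the filter it was called in that model. The neighbouring copy *Tex19.2* had 98.2 to 183.9 counts in the TKO clones, 671 in Ctrl 34 and 126 to 179 in the other Ctrl clones, and how reads were split between the copies is not stated.

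*Tex101*, a surface protein of male germ cells, had 45.3, 32.3, 35.1 and 29.1 counts in TKO 35, 37, 47 and 48, against 21.7, 34.6, 53 and 30.6 in Ctrl 33, 34, 41 and 43. *Slc25a31*, the testis form of the mitochondrial ADP/ATP carrier, had 41.9, 34.7, 39.1 and 46.2 in the TKO clones, against 21.7, 80.6, 64.4 and 46.9 in the Ctrl clones, in the same order. In both genes the Ctrl clones spread more widely and enclosed every TKO clone.

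Of the 7 germ cell regulators tested, none passed between genotypes in edgeR. *Dnd1*, an RNA-binding protein on which survival of primordial germ cells depends, had 192, 169, 197 and 151 counts in TKO 35, 37, 47 and 48, against 149, 117, 131 and 127 in Ctrl 33, 34, 41 and 43. The lowest TKO clone lay just above the highest Ctrl clone. Its log2 change was 0.44 (SE 0.18, edgeR adjusted p = 0.303). Once the series was a term, the edgeR adjusted p was 0.12, and DESeq2 called *Dnd1* there (adjusted p = 0.0483). *Nanos3*, another protector of primordial germ cells, had 30, 26.1, 52.1 and 31.6 counts in the TKO clones, against 35.2, 44.6, 60.2 and 53 in the Ctrl clones. TKO 47 fell within the Ctrl range and the other TKO clones below it. *Kit*, the receptor for stem cell factor, had 12.5 to 25.6 counts over the clones.

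The direction of *Dazl* and *Sohlh2* rested on Ctrl 34. *Dazl*, an RNA-binding protein that licenses gamete formation, had 539.8, 485, 296 and 577 counts in TKO 35, 37, 47 and 48, against 295, 1698, 719.7 and 346 in Ctrl 33, 34, 41 and 43. Its log2 change was -0.69 (SE 0.50, edgeR adjusted p = 0.525), and 0.06 without Ctrl 34. *Sohlh2*, a transcription factor of early germ cells in both sexes, had 800.1, 609.6, 518 and 508 counts in the TKO clones, against 458, 1695, 666 and 458 in the Ctrl clones. Its log2 change was -0.43 (SE 0.40, edgeR adjusted p = 0.622), and 0.21 without Ctrl 34. The genotypes overlapped in both genes.

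The chromosome axis and cohesin genes were among the well-expressed ones and none of the 5 passed between genotypes. *Stag3* had 1789.8, 1781, 1431 and 1079.9 counts in TKO 35, 37, 47 and 48, against 1146, 1757, 1621 and 1286 in Ctrl 33, 34, 41 and 43. *Hormad1* had 799, 788, 999 and 609.6 in the TKO clones, against 501, 859.6, 744 and 572 in the Ctrl clones. The ranges overlapped in both, with log2 changes of 0.07 (SE 0.19) for *Stag3* and 0.25 (SE 0.20) for *Hormad1*. *Stag3* changed sign without Ctrl 33, TKO 35 or TKO 37 and within the forties. *Smc1b*, the meiotic form of a cohesin subunit, had 547, 438, 862 and 345 counts in the TKO clones, against 504, 1541, 781 and 458 in the Ctrl clones. *Hormad2*, a second axis protein, had 137, 141, 192 and 184 in the TKO clones, against 138, 382, 225 and 145 in the Ctrl clones. Ctrl 34 was the highest clone for both, and the log2 change of *Smc1b* was -0.59 (SE 0.40, edgeR adjusted p = 0.504), and -0.09 without Ctrl 34.

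In the synaptonemal complex none of 5 genes passed between genotypes (edgeR adjusted p from 0.559 to 0.952). *Sycp1*, the filament that bridges the paired chromosomes, had 203, 219, 176 and 217 counts in TKO 35, 37, 47 and 48, against 159.8, 478, 258 and 136 in Ctrl 33, 34, 41 and 43. *Sycp2*, a protein of the lateral elements, had 15.3, 17.9, 27 and 42.7 in the TKO clones, against 13.5, 53.3, 38.4 and 39.7 in the Ctrl clones. The Ctrl ranges enclosed the TKO clones in both genes. *Syce2*, a central element protein, had 10.8 to 25.6 counts over the clones in its non-coding record.

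Oocyte genes other than *Zp3* were near the limit of detection. *Nobox*, a homeobox gene of oocytes, had 7.36, 7.24, 9.02 and 5.98 counts in TKO 35, 37, 47 and 48, against 5.42, 2.88, 2.08 and 1.02 in Ctrl 33, 34, 41 and 43. All TKO clones were above all Ctrl clones, and the Ctrl values rest on 1 to 2 reads per library. The log2 change was 1.57 (SE 0.46, edgeR adjusted p = 0.214). *Gdf9*, a growth factor secreted by oocytes, had 6.22 to 11 counts in TKO clones and 10.4 to 15.8 in Ctrl clones, with a log2 change of -0.60 (SE 0.31, edgeR adjusted p = 0.393).

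**Figure D2:**
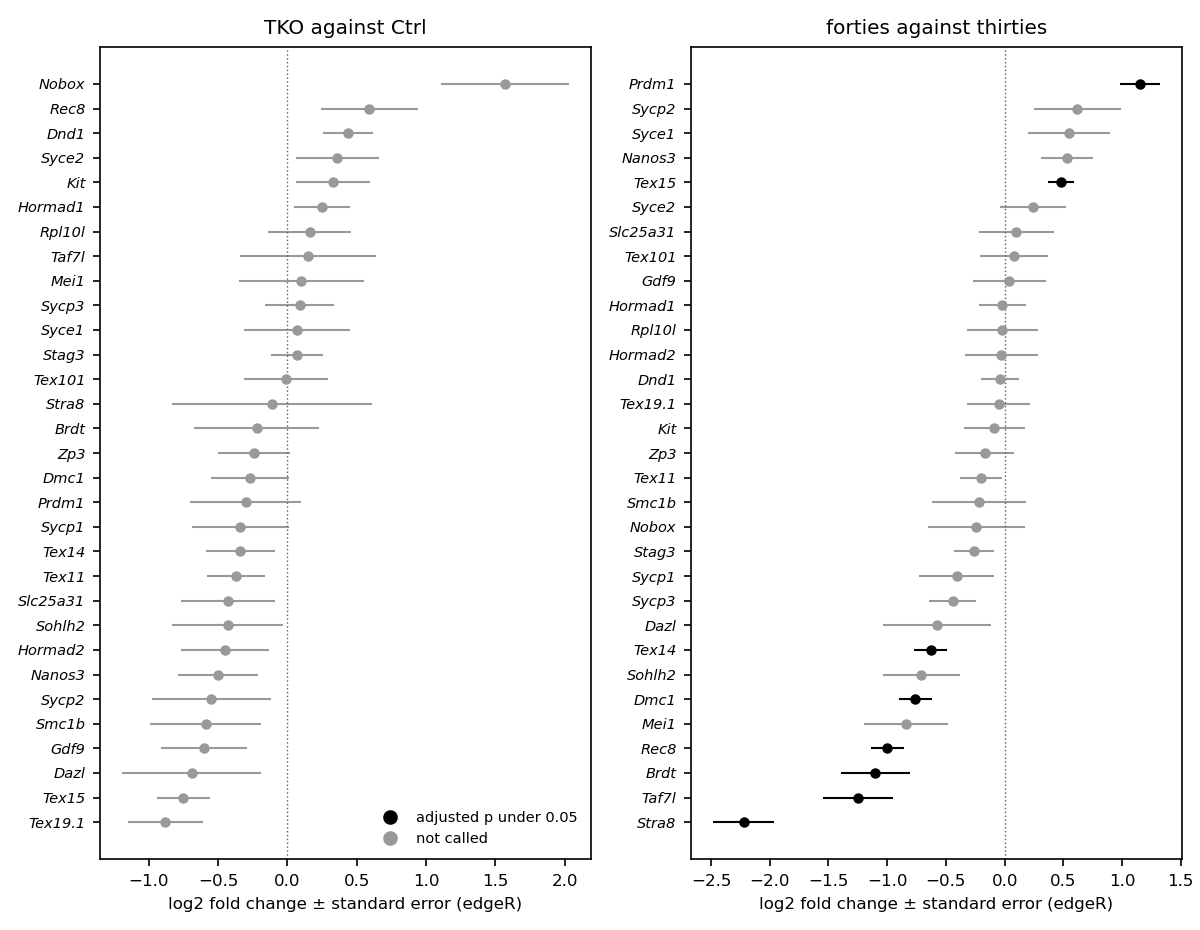
Log2 change of the 31 tested germline genes with its standard error (edgeR), for TKO against Ctrl on the left and for the forties against the thirties on the right, each sorted by size. Black points have an adjusted p under 0.05, which none has on the left and 8 have on the right.

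The clone series separated more germline genes than the genotype did. The same held over all tested records, with 3149 called between the series and 39 between genotypes (926 with the series in the model). With genotype in the model, 8 of the 31 genes differed between the forties and the thirties by edgeR's quasi-likelihood test, 2 higher and 6 lower in the forties, where 19.4% of all records were called (9.84% higher and 9.56% lower). The median log2 change of the 31 genes was -0.17, with 9 above 0 and 22 below, against 0 over all records. Without Ctrl 34 the median was 0.05, with 18 above and 13 below. The series did not overlap in 6 genes, *Prdm1* being higher and *Stra8*, *Rec8*, *Dmc1*, *Tex14* and *Brdt* lower in the forties, and 16.1% of all records did not overlap. All 8 were called with TMM scaling, without the filter, with at least 10 reads in every library, with counts summed per symbol, by DESeq2 and by limma-voom. Leaving out a clone gave 6 to 10. Of 13 fibroblast markers, 11 had a log2 change above 0 between the series (median 0.72). The 3 called were *Pdgfra*, *Prrx1* and *Twist1*, higher in the forties, where 19.4% of all records were called. The summed markers did not separate the series, at 96665 to 108068 in the forties, within the 67147 to 165619 of the thirties. The part of these markers in the germline differences was not tested.

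*Stra8*, which is induced by retinoic acid and starts the meiotic programme, was the germline gene with the largest difference. It lies in mm9 on chromosome 6 from 34870163 to 34889342. Its counts were 117 and 112 in TKO 47 and 48 and 124 and 58.1 in Ctrl 41 and 43, against 476 and 405 in TKO 35 and 37 and 385 and 645 in Ctrl 33 and 34. The lowest clone of the thirties was more than 3 times the highest of the forties, in both genotypes. The mean was 103 ± 30.1 in the forties and 478 ± 118 in the thirties (SD, n = 4), with a log2 change of -2.22 (SE 0.26, edgeR adjusted p = 0.00114).

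*Rec8*, the meiotic kleisin that closes the cohesin ring, moved the same way. It had 373 and 274 counts in TKO 47 and 48 and 269 and 252 in Ctrl 41 and 43, against 745 and 730.2 in TKO 35 and 37 and 452 and 449 in Ctrl 33 and 34. The forties were below the thirties, and TKO 35 and 37 were the highest clones. The log2 change between the series was -1.0 (SE 0.14, edgeR adjusted p = 0.00219). Within the thirties *Rec8* was also called as higher in TKO (log2 change 0.71, SE 0.17, edgeR adjusted p = 0.0286), where 11.9% of all records were called. Over all clones the log2 change of *Rec8* between genotypes was 0.59 (SE 0.35, edgeR adjusted p = 0.442). Once the series was a term, it was 0.51 (SE 0.14, edgeR adjusted p = 0.0585), and *Rec8* was called in that model by DESeq2 and by edgeR without TKO 48, with an adjusted p of 0.00724 to 0.191 over the 14 alternatives.

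*Dmc1*, the recombinase that pairs broken DNA with the homologous chromosome, had 407 and 307 counts in TKO 47 and 48 and 449.7 and 387 in Ctrl 41 and 43, against 551 and 624 in TKO 35 and 37 and 642 and 815 in Ctrl 33 and 34. The series did not overlap, and the log2 change was -0.76 (SE 0.14, edgeR adjusted p = 0.00611). *Tex14*, a protein of the bridges that join germ cells, had 573 and 540.4 in TKO 47 and 48 and 706 and 670.4 in Ctrl 41 and 43, against 825 and 860.5 in TKO 35 and 37 and 829 and 1341 in Ctrl 33 and 34. Its log2 change was -0.63 (SE 0.14, edgeR adjusted p = 0.0142). Between genotypes neither gene passed, with log2 changes of -0.27 (SE 0.28) for *Dmc1* and -0.34 (SE 0.25) for *Tex14*, which were -0.05 and -0.07 without Ctrl 34. With the clone series in the model *Tex14* was called without Ctrl 33 (edgeR adjusted p = 0.0461) and in no other alternative.

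*Taf7l*, the X-linked germ cell form of a general transcription factor subunit, had 142 and 179.5 counts in TKO 47 and 48 and 221 and 139.6 in Ctrl 41 and 43, against 433 and 451 in TKO 35 and 37 and 182 and 549 in Ctrl 33 and 34. Ctrl 33 lay among the forties. The log2 change was -1.25 (SE 0.30, edgeR adjusted p = 0.019), and the call was lost without Ctrl 43, TKO 35, TKO 37 or TKO 47 (highest adjusted p 0.0635). *Brdt*, a testis bromodomain protein, had 20 and 22.2 counts in TKO 47 and 48 and 24.9 and 22.4 in Ctrl 41 and 43, against 44.7 and 40.5 in TKO 35 and 37 and 27.1 and 76.3 in Ctrl 33 and 34. Ctrl 33 was just above the forties. Its log2 change was -1.10 (SE 0.29, edgeR adjusted p = 0.0277), and -0.77 without Ctrl 34, and the call was lost in the edgeR fits without Ctrl 34, 41 or 43 or TKO 35, 37 or 47 (highest adjusted p 0.0852).

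The 2 genes higher in the forties were *Prdm1* and *Tex15*. *Prdm1*, which encodes the BLIMP1 repressor that specifies primordial germ cells, had 704 and 484 counts in TKO 47 and 48 and 659.5 and 638 in Ctrl 41 and 43, against 237 and 215 in TKO 35 and 37 and 390.1 and 314 in Ctrl 33 and 34. The series did not overlap, with a log2 change of 1.15 (SE 0.17, edgeR adjusted p = 0.00248). *Tex15*, whose values are given above, had a log2 change of 0.48 between the series (SE 0.11, edgeR adjusted p = 0.0139). Its series did not overlap within either genotype, and overlapped over all clones.

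**Figure D3:**
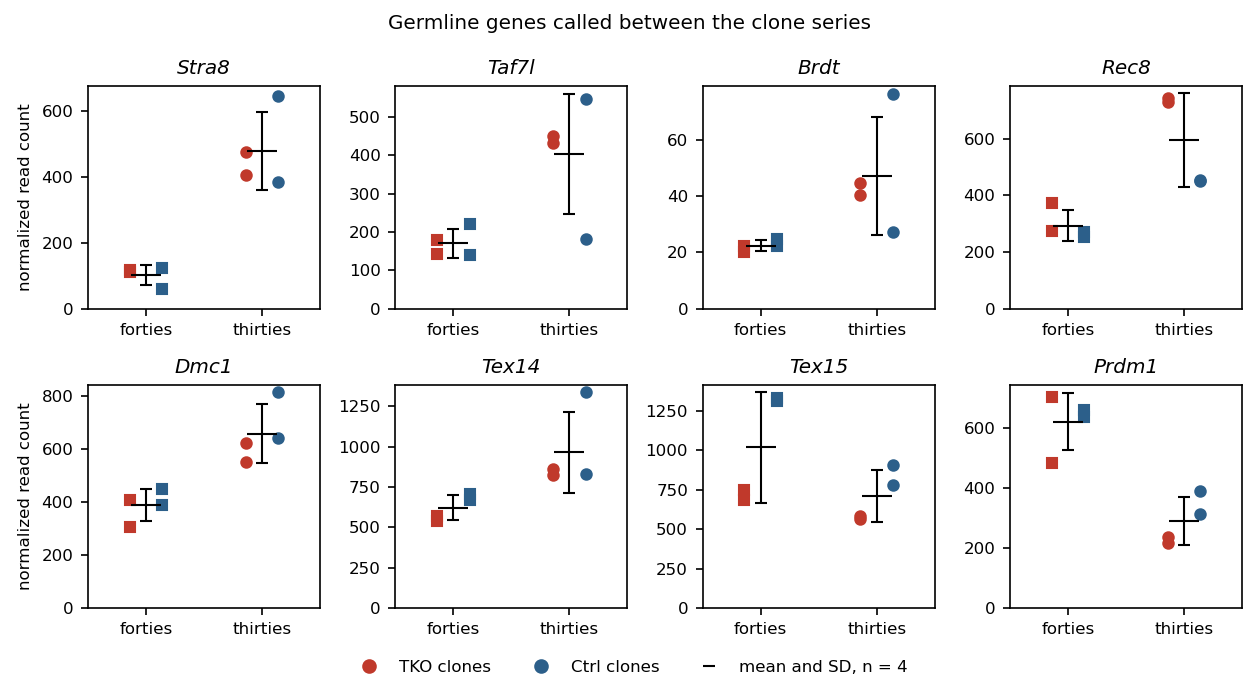
Normalized read count of the 8 germline genes called between the clone series, with the forties to the left of the thirties. Points are single clones (red TKO, blue Ctrl) and bars the mean and SD of 4 clones. *Stra8* lies at 58.1 to 124 in the forties and 385 to 645 in the thirties, and *Prdm1* at 484 to 704 in the forties and 215 to 390.1 in the thirties.

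The change between genotypes was then compared between the series. None of the 31 genes was called for the interaction by edgeR, where 1.30% of all records were called. At an unadjusted p under 0.05 there were 4 genes (18.7% of all records), *Syce1*, *Rpl10l* and *Zp3* with a higher change in the forties and *Sycp3* with a lower one. DESeq2 called the same 4, edgeR without the filter called *Syce1*, *Rpl10l* and *Zp3*, and limma-voom called 0. Without Ctrl 33 edgeR called 6 genes, and without TKO 47 it called 2. The median interaction of the 31 genes was 0.50, and -0.18 without Ctrl 34.

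*Sycp3*, the main protein of the lateral elements, had 192 and 157 counts in TKO 47 and 48, against 246 and 242 in Ctrl 41 and 43, and 329 and 331 in TKO 35 and 37, against 233 and 232 in Ctrl 33 and 34. The Ctrl clones were nearly level (238 ± 6.87, SD, n = 4), while the TKO clones were below them in the forties and above them in the thirties. The log2 interaction was -0.99 (SE 0.24, edgeR adjusted p = 0.0789). *Syce1*, a central element protein, had 364 and 637 in TKO 47 and 48, against 327 and 289 in Ctrl 41 and 43, and 188 and 218 in TKO 35 and 37, against 238 and 481 in Ctrl 33 and 34. This is the opposite order, with a log2 interaction of 1.55 (SE 0.47, edgeR adjusted p = 0.127), and 0.93 without Ctrl 34.

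*Rpl10l* had 564 and 1017 counts in TKO 47 and 48, against 485 and 356 in Ctrl 41 and 43, and 525 and 450.3 in TKO 35 and 37, against 707 and 740.1 in Ctrl 33 and 34. *Zp3*, a coat protein of the egg, had 276 and 216 in TKO 47 and 48, against 204 and 174 in Ctrl 41 and 43, and 195 and 174 in TKO 35 and 37, against 274 and 370.1 in Ctrl 33 and 34. Both were above Ctrl in the forties and below it in the thirties. The log2 interaction was 1.48 for *Rpl10l* (SE 0.37, edgeR adjusted p = 0.0843) and 1.19 for *Zp3* (SE 0.30, edgeR adjusted p = 0.0864). Within the thirties *Rec8*, *Tex15* and *Zp3* were called, *Zp3* as lower in TKO (edgeR adjusted p = 0.0399), so that 3 of 31 genes stand against 11.9% of all records. Genotype and depth cannot be told apart within the thirties. TKO 35 and 37 were the deepest of all libraries (45005422 and 52457455 reads) and Ctrl 33 and 34 the shallowest (8983203 and 17216692). Within the forties *Tex15* alone was called by edgeR, where 1.98% of all records were called. Summed fibroblast markers were 78832 and 67147 in TKO 35 and 37, against 165619 and 112929 in Ctrl 33 and 34. Of the 13 markers, 9 were called as lower in TKO within the thirties. In the forties the sums were 105392 and 108068 in TKO clones and 96665 and 107863 in Ctrl clones. The part of these markers and of depth in these results was not tested.

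Ctrl 34 stood apart in this set of genes, which was noticed after the values were seen. It was the highest of the 8 clones for 16 of the 31 genes, and for 15.2% of all records. It was at least 2-fold above the mean of the other 3 Ctrl clones for 9 of the 31 genes (29%), against 5.08% of all records. Each other clone exceeded its own genotype in this way for 0 to 2 genes. The ratio of Ctrl 34 to the other Ctrl clones was 3.74 for *Dazl*, 3.42 for *Stra8*, 3.22 for *Sohlh2*, 3.08 for *Brdt* and 3.04 for *Taf7l*. It was 2.65 for *Smc1b*, 2.59 for *Sycp1*, 2.25 for *Hormad2* and 2.16 for *Tex19.1*. These genes come from 4 of the 6 role groups, namely germ cell regulators, synaptonemal complex, axis and cohesin, and testis genes. *Prdm1* was the lowest at 0.558, and *Tex15*, *Dnd1*, *Nanos3*, *Sycp3* and *Tex101* were between 0.793 and 0.985. Summed over all 34 genes, the normalized count was 23822 in Ctrl 34, against 11653 to 15004 in the other Ctrl clones and 11499.7 to 12632 in TKO clones. *Tex19.1* was the largest single part of this sum in every clone. Ctrl 34 also had the highest sum of the other meiosis genes described below (8325.6, against 5922.5 to 7186.6 in the other clones). The same held for the other germ cell genes (10026.2, against 6994 to 8481.1). For the other oocyte genes it had 7143.5, within the 4518.2 to 7386.6 of the other clones. In Ctrl 34 the summed pluripotency markers were 196427 (143602 to 195219.6 in the other clones), the summed fibroblast markers 112929 (67147 to 165619) and the total 17216692 reads, the second lowest depth. The part of these in the pattern was not tested.

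**Figure D4:**
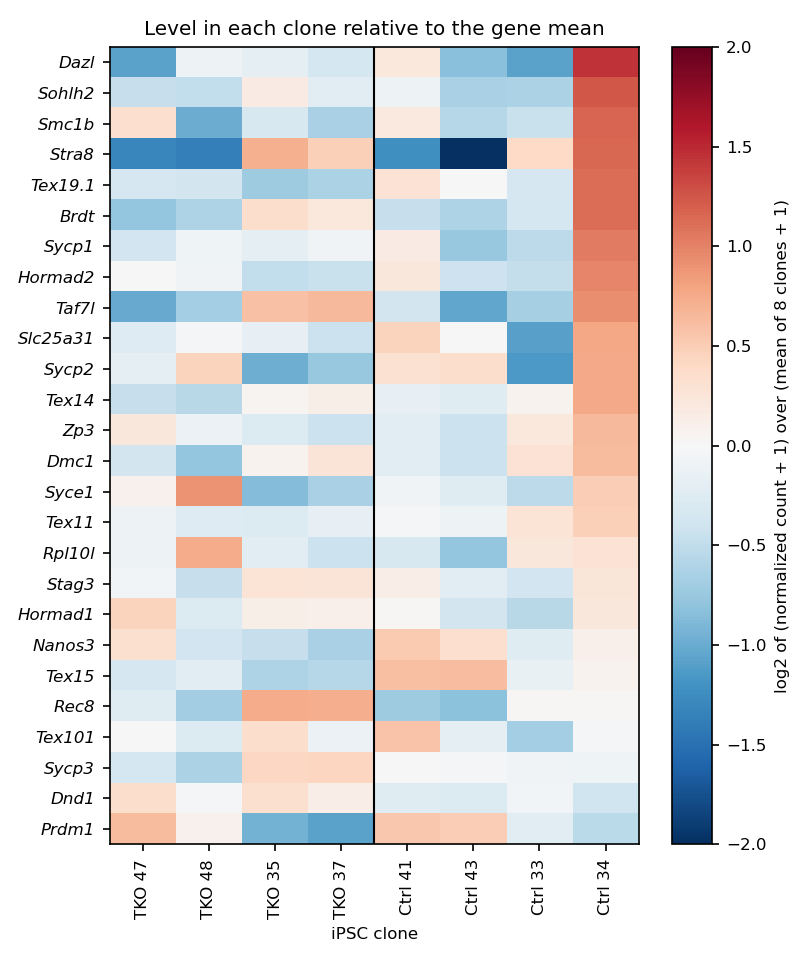
Level of the 26 germline genes averaging 20 or more normalized counts, in each clone, as log2 of (count + 1) over (mean of the 8 clones + 1), sorted by Ctrl 34. TKO clones are to the left of the line and Ctrl clones to the right. Ctrl 34 is the highest clone for most genes in the upper part, and *Prdm1* at the bottom is higher in the clones of the forties.

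**Figure D5:**
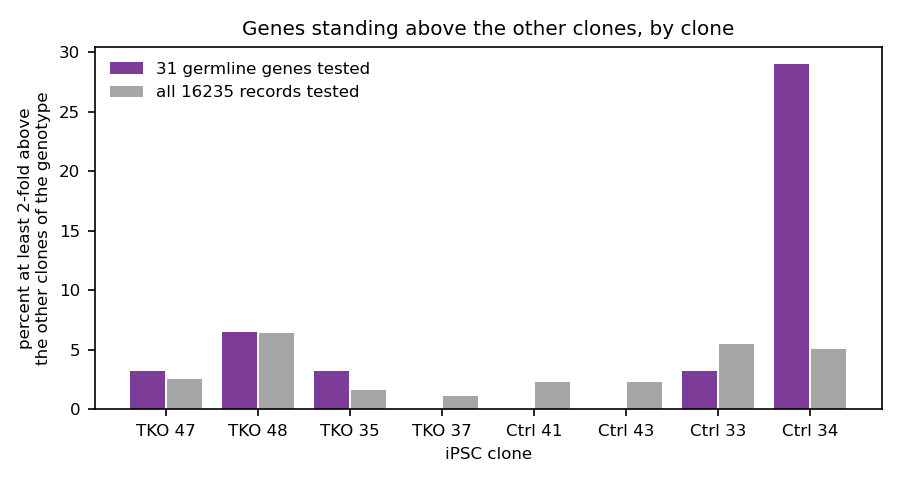
Percent of the 31 tested germline genes (purple) and of all 16235 tested records (grey) that were at least 2-fold above the mean of the other clones of the same genotype, by clone. Ctrl 34 has 29% of the germline genes and 5.08% of the records, and no other clone has more than 6.45% of the germline genes.

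Germline genes outside the 34 were read from further lists. Of 23 other meiosis genes tested, 0 were called between genotypes by edgeR, where 0.240% of all records were called. At an unadjusted p under 0.05 there were 4, of which 3 were lower in TKO, against 14.8% of all records. Once the series was a term, 2 were called as lower in TKO, *Hfm1*, a helicase of crossover formation (log2 change -1.02, edgeR adjusted p = 0.0333), and *Ythdc2*, an RNA helicase needed for meiosis (-0.44, edgeR adjusted p = 0.0475), where 5.70% of all records were called. Between the series 4 of the 23 were called, a share near the 19.4% of all records. *M1ap* and *Rec114*, both linked to meiotic recombination, were lower in the forties, with log2 changes of -0.89 (SE 0.21) and -0.99 (SE 0.28), and *Hfm1* was higher, with 0.95 (SE 0.22). Of 21 other germ cell genes 0 were called between genotypes, and 1, lower in TKO, had an unadjusted p under 0.05 (14.8% of all records). Between the series 4 of the 21 were called, again near the 19.4% of all records. *Dmrt1*, a transcription factor of testis and germ cells, had 290.5 and 287 counts in TKO 47 and 48 and 329 and 342 in Ctrl 41 and 43, against 899.7 and 872 in TKO 35 and 37 and 954 and 706 in Ctrl 33 and 34, so the series lay far apart (log2 change -1.46, SE 0.13, edgeR adjusted p = 0.000407). *Zbtb16*, a factor of spermatogonia, was lower in the forties as well (-1.78, SE 0.34), while *Ldhc* and *Id4* were higher (1.08, SE 0.29, and 0.55, SE 0.16).

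Of 8 other oocyte genes, *Npm2*, the egg nucleoplasmin, was the only 1 called between genotypes, where 0.240% of all records were called. It had 12 to 19.7 counts in TKO clones, against 50.9 to 137 in Ctrl clones. The genotypes did not overlap, and the log2 change was -2.45 (SE 0.34, edgeR adjusted p = 0.0236). Whether *Npm2* lies near a targeted *Piwi* gene was not examined. For a gene that does, linked sequence and loss of the PIWI proteins cannot be told apart in this design. A part of linked sequence in the change of *Npm2* was not tested. *Lhx8*, a homeobox gene of oocytes, was higher in the forties (log2 change 2.16, SE 0.45), from 0.965 to 17 counts over the clones. It was the only 1 of the 8 called between the series, where 19.4% of all records were called. Of 16 tested factors that keep germline genes silent, 0 were called between genotypes by edgeR. At an unadjusted p under 0.05, 2 were lower in TKO and 0 higher, against 14.8% of all records. The most expressed of the 16 were *Hdac1*, a histone deacetylase, and *Dnmt1*, the maintenance DNA methyltransferase, with log2 changes of 0.04 and -0.04. *Dnmt3l*, a cofactor of new DNA methylation, was lower in the forties (log2 change -0.75, SE 0.23, edgeR adjusted p = 0.0482). No other of the 16 factors was called between the series, a share below the 19.4% of all records.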

How the data were processed

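RNA of 8 iPSC clones was sequenced single-end from Illumina TruSeq libraries. The authors mapped reads with BWA (0.7.5a in the submitters' processing notes) to mm9 transcripts and deposited whole-number read counts for 27052 RefSeq records, with no scaling or filter. How reads matching several records, or their strand, were counted is not given in the sources used here. Symbols for 26322 records came from a RefSeq table of GRCm38.p6 (names only) and, for *Miwi2*, from the paper. Clone groups came from the sample titles.

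Records reaching 5 reads in 4 or more of the 8 libraries (16235) were scaled by DESeq's median-ratio method (size factors 0.369 to 2.07) and tested with edgeR 4.0.16 (glmQLFit, glmQLFTest, R 4.3.3), with p-values adjusted over all of them by Benjamini-Hochberg. The common biological coefficient of variation was 0.261. Filter, scaling and false discovery rate follow the study's methods, which also asked for a 2.5-fold change and agreement of several tools. Neither was required here, where a gene is called on edgeR's adjusted p alone. Models held genotype, genotype with clone series, or both with their interaction. Reads are not independent molecules, and totals set only the counting error. Methods were tested on simulated counts. Between genotypes edgeR recovered 14 of 66 changes of 1.5-fold, 47 of 67 of 2.5-fold and 61 of 66 of 5-fold. It made 6 false calls among 15832 unchanged records. Smaller changes would therefore often be missed. The simulated spread came from a model with genotype and clone series, so recovery in the data may differ.

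Genes averaging 20 or more normalized counts, or called, were given by clone, and at most 4 of each other list, the called ones first. The genes, lists and rules were chosen with earlier results of these data known. Alternatives were TMM, DESeq2 1.42.0, limma-voom 3.58.1, no filter, a minimum of 10 reads in every library, counts summed per symbol, the clone series in the model, fits within a series and each clone left out. All of these with the series in the model, and the comparison of Ctrl 34 with other clones, were chosen after seeing the data. A further gene list of sex-linked genes was described by clone only.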

Additional observations from a re-analysis of the deposited data

Results flagged for a closer look

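Within the 4 Ctrl clones, 2 germline genes had a single clone far from the rest by Dixon's gap test, and in both it was Ctrl 34. *Sohlh2* had 1694.8 normalized counts in Ctrl 34, against 457.5 to 665.7 in the other Ctrl clones (gap ratio 0.832). *Brdt* had 76.3 in Ctrl 34, against 22.4 to 27.1 (gap ratio 0.913). Groups of 4 clones were examined 52 times, and chance gives such a gap in about 1 of 20 groups.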

How the results depend on the processing

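Between genotypes the count of germline genes called was 0, and 1 with the clone series in the model or by DESeq2, and stayed 0 with each clone left out. With the series in the model, the alternatives gave 1 to 4, with 4 by DESeq2 (*Dnd1*, *Rec8*, *Tex15* and *Tex19.1*), 2 without the filter and 1 to 3 with a clone left out (3 without Ctrl 33). Over all records it was 39, against 926 with the series in the model, 513 by DESeq2 and 15 to 86 with a clone left out. Between the series, leaving out a clone gave 6 to 10 germline genes, and 1281 to 3816 records against 3149. For the interaction the count was 0, against 3 without the filter, 4 by DESeq2 and 0 to 6 with a clone left out. In the other germline lists 1 gene was called between genotypes, against 3 with the series in the model and 2 by DESeq2. *Dazl* ranged from -0.95 to 0.06 and *Sohlh2* from -0.63 to 0.21 with a clone left out, and both changed sign without Ctrl 34. *Stag3* was -0.21 within the forties and ranged from -0.03 to 0.20 with a clone left out (-0.02 without TKO 35 or TKO 37). The causes were not tested beyond the construction of each setting. No paired analysis was possible because no number is shared by a TKO and a Ctrl clone. Genes under about 20 counts, such as *Nobox*, *Gdf9* and *Mei1*, are limited by depth.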
